A study of Mus musculus with 6 samples.

Results

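The pre-T-cell receptor alpha chain (Ptcra) and the CD3 chains Cd3e, Cd3d, Cd3g and Cd247 were followed in double-negative (DN) mouse thymocytes, T-cell precursors with neither CD4 nor CD8 on their surface. These 5 genes, out of 19937 measured, are the invariant chains of the pre-TCR and of the receptor complex. They were chosen by name, with earlier results of these data known. Each has 1 probe set on the array, so no choice among probe sets was needed. Levels were read on 6 Affymetrix arrays in 2 groups of 3. The 3 RAG-/- arrays, labelled control, hold DN cells of Rag2-/- mice, which lack a recombinase subunit. The 3 DNTLX3+ arrays, labelled tumoral, hold sorted DN cells of wild-type mice that received TLX3, a homeobox oncogene of T-cell leukaemia, in the retroviral vector pMSCV-GFP-TLX3. The latter were grown for 4 to 5 weeks on irradiated OP9-DL1 stroma, which presents a Notch ligand, in medium with interleukin 7 and Flt3 ligand. Mice were C57Bl/6 of 4 to 6 weeks, and DN cells were obtained by magnetic depletion of CD4- and CD8-bearing cells and then sorting. The labels give these protocols to all samples, and whether the Rag2-/- cells were cultured is unclear from them. Cells given the empty pMSCV-GFP vector were not analysed here, so genotype, TLX3 and possibly culture differ together and cannot be told apart. The labels do not tie replicates to separate mice or cultures. The p-values therefore measure only array-to-array spread, which may be technical.

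The pre-TCR forms when a newly rearranged TCR beta chain pairs with pre-TCR alpha, which stands in for the alpha chain that is made later. Neither chain signals by itself. They assemble in the endoplasmic reticulum with CD3 epsilon-delta and epsilon-gamma dimers and with the zeta dimer encoded by Cd247, whose cytoplasmic tails carry immunoreceptor tyrosine-based activation motifs (ITAMs) that Src-family kinases phosphorylate. The resulting signal drives DN thymocytes past beta-selection. Cells without Rag2 cannot rearrange the beta locus, so they transcribe Ptcra and the CD3 genes but do not assemble a pre-TCR.

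The labels were first set against marker genes. Tlx3 averaged 5.45 ± 0.07 log2 units over the Rag2-/- group and 6.69 ± 0.35 over the TLX3 group (SD, n = 3 each). Rag2 itself read 8.02 and 7.72, a log2 difference of -0.30 (limma adjusted p = 0.124). The Rag2-/- group was thus not the lower one, and the place of its probes relative to the deletion is unknown here, so it neither bears out nor refutes the label. Thy1, a surface marker of T-lineage cells, stood at 11.43 and 11.64 in the Rag2-/- and TLX3 groups. Cd4 (6.01 and 5.67) and Cd8a (6.25 and 6.38) lay near the array medians, which ran from 6.22 to 6.35. Cd8b1, the CD8 beta chain gene, was an exception to the double-negative label at the RNA level. It rose from 5.48 ± 0.06 in the Rag2-/- group to 6.996 ± 0.20 in the TLX3 group (SD, n = 3; limma adjusted p = 0.000157), above the array medians. The TLX3 arrays had a narrower range of signal, with an interquartile range of 2.47 to 2.85 log2 units against 3.09 to 3.18. Log2 differences (always the TLX3 group less the Rag2-/- group) also shifted with level. With genes cut into 10 equal classes by level, the median difference was 0.34 in the dimmest class and -0.13 in the brightest. It was lowest, at -0.21, in the 8th and 9th classes, the 9th being that of Cd247.

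All 5 genes were lower in the TLX3 arrays. Ptcra, the invariant partner of the beta chain, fell 2.16-fold, and the CD3 genes were 1.31- to 1.58-fold lower. For every one of the 5, each TLX3 array read below each Rag2-/- array, a pattern seen in 26% of all genes (32.3% showed the opposite order). All 5 passed a limma adjusted p under 0.05, which 19.4% of genes did as lower and 23% as higher. Among the 2400 genes at least as bright as Cd247, the dimmest of the 5, the share lower was 29.4%. This second background was added after the values were seen. With a minimum difference of 1 log2 unit added, a criterion termed called below, only Ptcra passed. The same call was made as lower for 5.07% of all genes, for 6.33% of those 2400, and as higher for 1.44% of all genes. The median difference of the 5 was -0.50, against 0.11 over all genes and -0.14 over the 2400. Cyclic loess moved the median of all genes to 0.00 and that of the 5 to -0.43. In RNA from bulk cells, fewer cells that use a gene and less RNA per cell cannot be told apart.

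**Figure D1:**
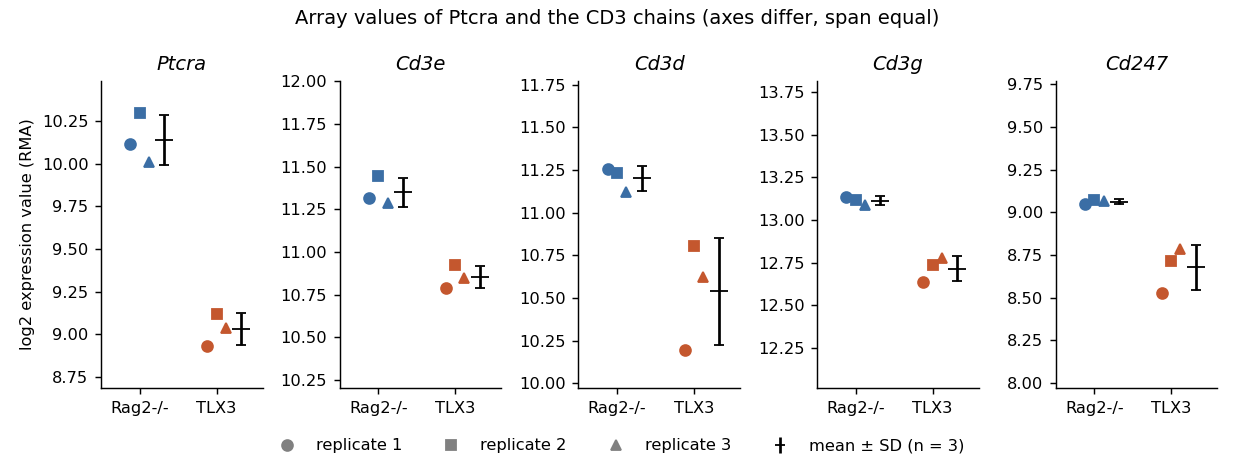
Log2 expression values (RMA) of Ptcra, Cd3e, Cd3d, Cd3g and Cd247 on each array, with the replicate shown by the symbol, and the mean ± SD of each group (n = 3); panels have different axes of equal span. No TLX3 value overlaps the Rag2-/- values in any panel, and the gap between group means is widest for Ptcra, with a difference of -1.11 log2 units.

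Ptcra read 10.11, 10.30 and 10.01 in Rag2-/- replicates 1, 2 and 3, and 8.93, 9.12 and 9.04 in TLX3 replicates 1, 2 and 3. The lowest Rag2-/- array thus lay well above the highest TLX3 array, and neither group had a replicate that stood apart. The group means were 10.14 ± 0.14 and 9.03 ± 0.10 (SD, n = 3). The log2 difference was -1.11 ± 0.13 (SE, 95% interval -1.40 to -0.81, limma adjusted p = 0.000471). It put Ptcra at the 3.75th percentile of differences over all genes. A second quantile normalization gave -1.002, and cyclic loess gave -0.97. In the latter setting Ptcra still passed the adjusted p (0.000544) and missed the minimum difference. Within limma treat, which tests against a difference of 1 itself, Ptcra did not pass.

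Cd3e encodes CD3 epsilon, the chain shared by both CD3 dimers. It read 11.32, 11.45 and 11.29 in the Rag2-/- arrays and 10.79, 10.92 and 10.85 in the TLX3 arrays. The groups were apart by more than either varied, with SDs of 0.08 and 0.07. Its log2 difference was -0.50 ± 0.12 (SE, 95% interval -0.77 to -0.23, limma adjusted p = 0.0103). The adjusted p rose to 0.0546 without Rag2-/- replicate 2, where the difference was -0.45.

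Cd3d encodes CD3 delta, which pairs with epsilon. It read 11.26, 11.23 and 11.12 in the Rag2-/- arrays and 10.19, 10.80 and 10.62 in the TLX3 arrays. TLX3 replicate 1, the array with the narrowest signal range, was the lowest of the 6 and widened the SD of its group to 0.31, against 0.07 in the Rag2-/- group. The log2 difference was -0.66 ± 0.17 (SE, 95% interval -1.04 to -0.29, limma adjusted p = 0.0123). It ran from -0.80 to -0.49 as single arrays were left out, the smallest size being that without TLX3 replicate 1, and passed the adjusted p each time.

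Cd3g encodes CD3 gamma, the partner of epsilon in the other dimer. Its values were 13.14, 13.12 and 13.09 in the Rag2-/- arrays and 12.63, 12.73 and 12.78 in the TLX3 arrays. Both groups were tight, with SDs of 0.02 and 0.07. The log2 difference was -0.40 ± 0.12 (SE, 95% interval -0.66 to -0.14, limma adjusted p = 0.0226). Quantile normalization again brought it to -0.21 (adjusted p = 0.136), whereas cyclic loess left it at -0.43 (adjusted p = 0.0120).

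Cd247 encodes the zeta chain, which holds more ITAMs than any other chain of the complex and is also used by natural killer (NK) cells. It read 9.05, 9.07 and 9.06 in the Rag2-/- arrays and 8.53, 8.72 and 8.79 in the TLX3 arrays. The SD of the Rag2-/- arrays was 0.01 and that of the TLX3 arrays 0.13, and TLX3 replicate 1 was again the lowest. The log2 difference was -0.38 ± 0.12 (SE, 95% interval -0.66 to -0.11, limma adjusted p = 0.0330). It shrank to -0.20 (adjusted p = 0.162) after quantile normalization again and to -0.22 (adjusted p = 0.124) after cyclic loess. Without any 1 of the 3 Rag2-/- arrays, neither Cd3g (adjusted p of 0.0921, 0.0802 and 0.0663 without replicates 1, 2 and 3) nor Cd247 (0.101, 0.104 and 0.0949) passed, although their differences stayed at -0.41 to -0.38.

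**Figure D2:**
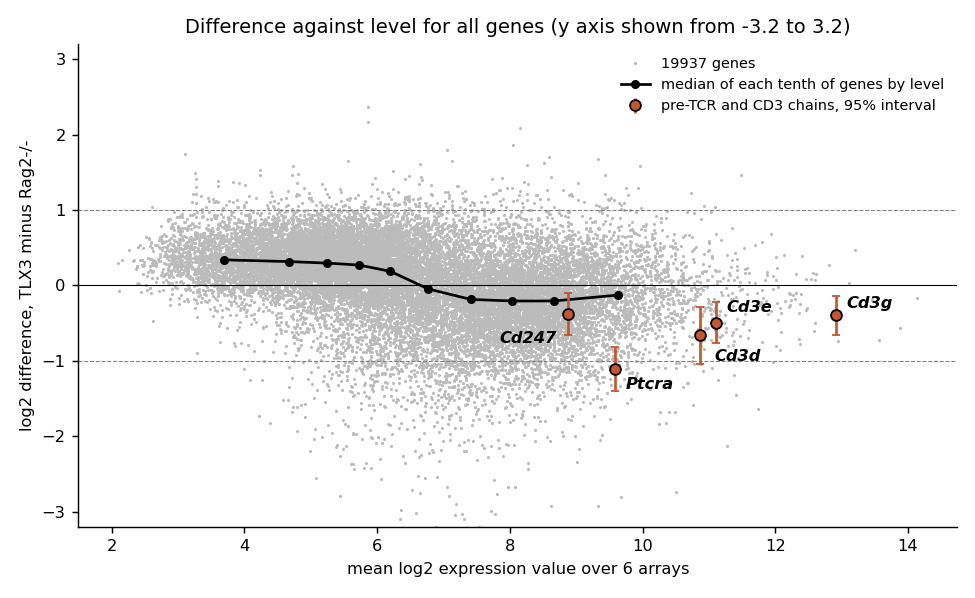
Log2 difference (TLX3 minus Rag2-/-) against mean log2 expression value over 6 arrays for 19937 genes (grey), with the median of 10 equal classes of genes by level (black line) and the 5 receptor genes with their 95% intervals (orange); dashed lines mark a difference of 1, and the axis leaves out genes beyond 3.2. The black line runs from 0.34 at low level through -0.21 in the 8th and 9th classes to -0.13 at high level. The 5 genes lie below it, Ptcra the farthest and Cd247, of the 9th class, the nearest.

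**Figure D3:**
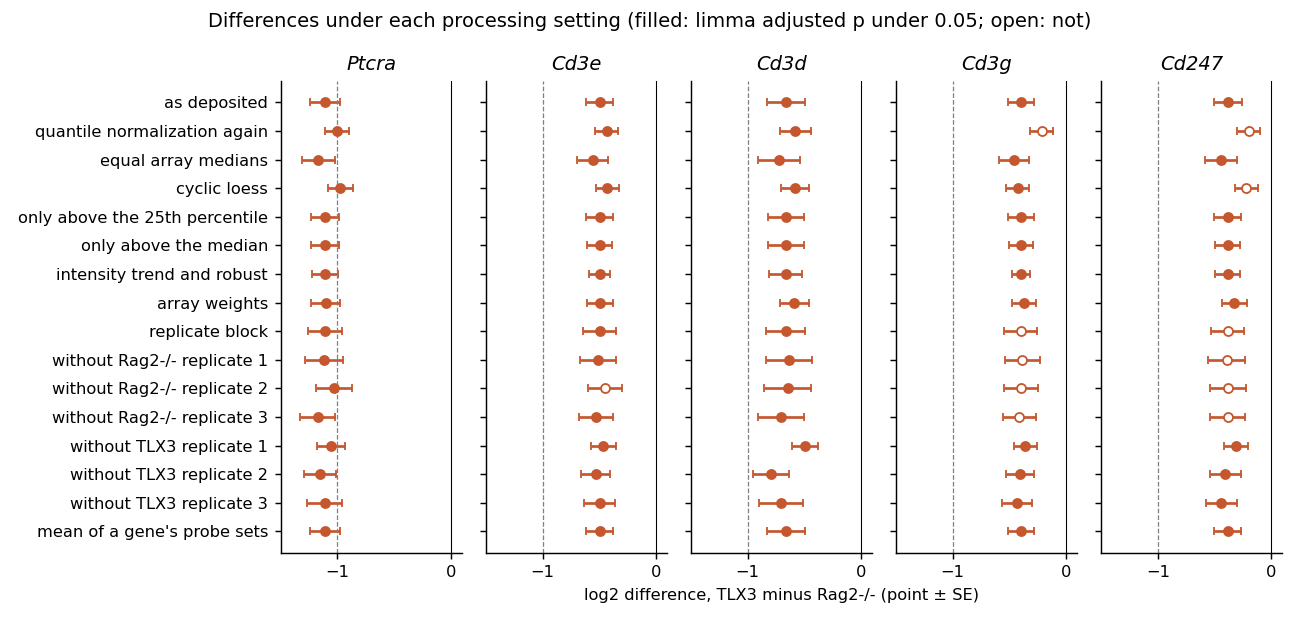
Log2 difference ± SE of each receptor gene under the deposited values and 15 other settings; filled points passed a limma adjusted p under 0.05 and the dashed line marks a difference of -1. All differences lie below 0; Ptcra and Cd3d are filled throughout, Cd3e is open once, and Cd3g and Cd247 are open after quantile normalization again, with a replicate block and without each Rag2-/- array, Cd247 also after cyclic loess.

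Whether the genes changed unequally was asked from differences between 2 genes on the same array, over the 10 pairs. In the 4 pairs that hold Ptcra, the groups did not overlap. The difference of Ptcra lay below that of Cd3e by a contrast of -0.61 ± 0.04 log2 units (SE), below that of Cd3d by -0.45 ± 0.14, of Cd3g by -0.71 ± 0.09 and of Cd247 by -0.72 ± 0.09. Each of these 4 had an exact permutation p of 0.10 (two-sided), the smallest that 3 arrays against 3 can give, and 0.25 when adjusted over the 10 pairs. In the 6 pairs among the CD3 genes the groups overlapped on the deposited scale and with equal array medians. That distinction depends on the scaling: the groups were apart in 4 of these 6 pairs after quantile normalization again and in 3 of 6 after cyclic loess, as in all 4 pairs with Ptcra. Those pairs then also reached the smallest exact permutation p, 0.125 and 0.143 when adjusted. The contrast of Cd3e less Cd3d was 0.17 ± 0.15 (exact permutation p = 0.40, 0.444 adjusted), and that of Cd3g less Cd247 was -0.01 ± 0.04 (exact permutation p = 0.70, 0.70 adjusted). The latter was -0.21 after cyclic loess, with the groups apart. The other 4 contrasts among CD3 genes ran from -0.28 to -0.10, each with an exact permutation p of 0.20.

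The lowering of Cd3g, Cd3d and Cd3e was set beside the layout of their genes. The 3 lie together on chromosome 9, and Cd3g and Cd3d are transcribed away from each other from starts 1355 bases apart, whereas the starts of Cd3d and Cd3e are 27825 bases apart. Ptcra lies on chromosome 17 and Cd247 on chromosome 1, and both were lower too, so being lower was not particular to the cluster. The sequences shown are the 250 bases before the annotated start of Ptcra, the gene that was called, and of the 3 clustered CD3 genes. They are from RefSeq, build GRCm38.p6, at chr17:46763713-46763962 (minus strand), chr9:44980432-44980681 (minus strand), chr9:44981536-44981785 (plus strand) and chr9:45009612-45009861 (minus strand), each written 5′ to 3′ in the direction of its gene. Capitals mark matches on either strand to 4 motifs. They are TGGGAA, known from RBPJ, which carries Notch to DNA, CANNTG, the E-box of E proteins, AGATAA, known from GATA factors, and CTTTGA, known from the TCF/LEF family.
Ptcra: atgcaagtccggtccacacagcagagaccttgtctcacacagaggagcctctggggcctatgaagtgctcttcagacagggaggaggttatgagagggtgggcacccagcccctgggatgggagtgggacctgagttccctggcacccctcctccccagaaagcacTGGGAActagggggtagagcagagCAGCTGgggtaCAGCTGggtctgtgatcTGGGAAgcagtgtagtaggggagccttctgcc
Cd3g: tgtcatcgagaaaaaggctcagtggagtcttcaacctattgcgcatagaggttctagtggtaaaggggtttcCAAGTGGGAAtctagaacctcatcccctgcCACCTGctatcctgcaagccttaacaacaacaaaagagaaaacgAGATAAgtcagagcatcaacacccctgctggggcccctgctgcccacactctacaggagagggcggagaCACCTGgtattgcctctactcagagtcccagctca
Cd3d: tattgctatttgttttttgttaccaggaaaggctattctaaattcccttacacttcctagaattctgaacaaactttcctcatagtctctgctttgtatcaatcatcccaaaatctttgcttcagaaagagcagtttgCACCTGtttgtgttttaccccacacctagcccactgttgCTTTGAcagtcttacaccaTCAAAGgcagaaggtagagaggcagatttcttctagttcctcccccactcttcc
Cd3e: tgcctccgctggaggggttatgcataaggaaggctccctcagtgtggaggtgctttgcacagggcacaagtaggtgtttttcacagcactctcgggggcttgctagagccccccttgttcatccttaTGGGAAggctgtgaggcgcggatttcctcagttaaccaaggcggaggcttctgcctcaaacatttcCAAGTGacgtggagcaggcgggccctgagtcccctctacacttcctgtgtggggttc

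The Ptcra window held 2 matches to TGGGAA, starting 84 and 32 bases before the start, with 2 E-boxes of the letters CAGCTG between them, at 60 and 49 bases. Of 32851 promoter windows of this length, 21.6% held TGGGAA and 66.2% held an E-box. Cd3e and Cd3g each held 1 TGGGAA. In Cd3g it overlapped an E-box by 2 bases, and the window also held 2 further E-boxes and 1 AGATAA (in 9.99% of windows). Cd3d held no TGGGAA, 1 E-box and 2 matches to CTTTGA (in 13.8% of windows). The Cd247 window held 2 E-boxes and none of the other 3. TGTGGT, a RUNX site, was in no window of the 5 and in 14.0% of all, and GGAA, the ETS core that TGGGAA contains, was in each of the 5 and in 93.4% of all. These matches describe letters in a window and show no binding. The Notch-responsive enhancer known for Ptcra lies farther upstream and outside it.

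Genes next to the 3 loci were read by their order on the chromosome, 5 measured genes on each side. Of the 30, 2 were called lower and none higher. That is near the 5.07% and 1.44% of all genes called lower and higher. The 2 lie at the CD3 locus, and cyclic loess gave 3 called lower. At an unadjusted limma p under 0.05, 10 were lower and 8 higher, against 22.9% and 29.6% of all genes. Mpzl2, an adhesion protein first described in thymic epithelium and the nearest measured gene beyond Cd3e, fell from 11.87, 11.83 and 11.91 in the Rag2-/- arrays to 8.68, 9.33 and 9.39 in the TLX3 arrays. Its log2 difference was -2.74 ± 0.19 (SE, limma adjusted p = 4.59e-05), and 7 of 10 markers of thymic epithelium were called lower as well; their part in it was not tested. On the other side, Ube4a, the nearest measured gene to Cd3g, was at -0.65 (adjusted p = 0.0383). Kmt2a, a histone H3 lysine methyltransferase 3 genes away from Cd3g, fell by 1.23 on the log2 scale. Without TLX3 replicate 1 its difference was -0.94 and it was not called. Atp5l, between these 2, was higher by 0.64 (adjusted p = 0.00683), so the direction was not shared along the locus.

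At the Ptcra locus none of the 10 neighbours was called in limma, with 2 lower and 3 higher at an unadjusted p under 0.05. Cnpy3, an endoplasmic reticulum cochaperone of Toll-like receptors and the nearest gene on one side, was at -0.26 (adjusted p = 0.110). 2310039H08Rik, the nearest on the other, was at 0.68 (adjusted p = 0.00385). Around Cd247, Creg1 (-0.45, adjusted p = 0.0191) and Dusp27 (0.61, adjusted p = 0.0320) flanked the gene with differences of opposite sign. The median over the 10 neighbours was -0.36 at the CD3 locus, 0.16 at Ptcra and 0.01 at Cd247, the last turning to -0.08, -0.05 and -0.13 under quantile, median and cyclic loess scaling.

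**Figure D4:**
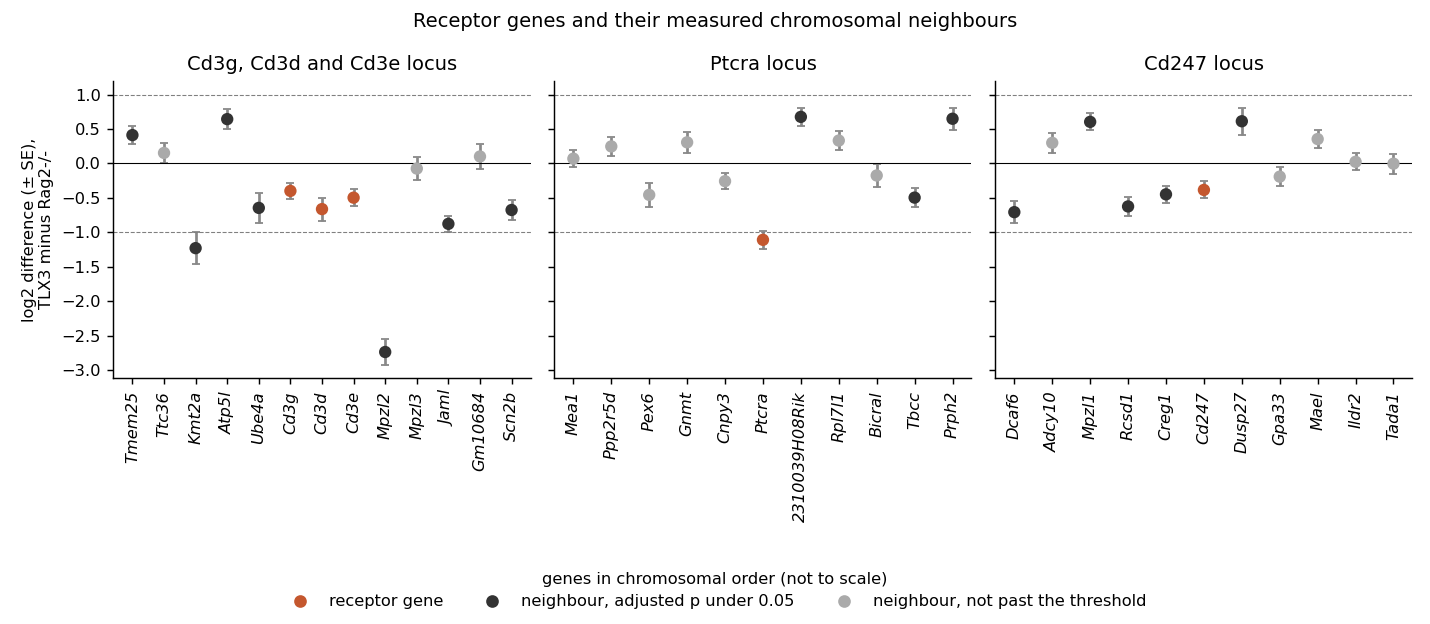
Log2 difference ± SE (TLX3 minus Rag2-/-) of the receptor genes (orange) and of the 5 nearest measured genes on each side, in chromosomal order and not to scale; dark points passed a limma adjusted p under 0.05 and grey points did not. Ptcra is the lowest gene of its locus at -1.11, while at the CD3 locus Mpzl2 at -2.74 and Kmt2a at -1.23 lie below the 3 CD3 genes.

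Genes whose arrays followed each receptor gene most closely were found as the smallest root-mean-square distance between values centred on each gene's mean, over 6 arrays and the 10756 genes above the median level. For Ptcra these were 9530077C05Rik (0.048 log2 units), Cryzl1 (0.051) and Fyn (0.065), a Src-family kinase of the ITAMs. For Cd3e they were Nmral1 (0.034), Plin3 (0.038) and 1810062O18Rik (0.040), for Cd3d Eny2 (0.030), Cnep1r1 (0.032) and the ribosomal gene Rpl9 (0.034). For Cd3g they were Mtpap (0.018), Dus3l (0.025) and Ube2f (0.028), and for Cd247 Fam149b (0.019), the adaptor Nck2 (0.023) and Mri1 (0.033). Among the receptor genes themselves, Cd3g and Cd247 were closest, at 0.040, and Cd247 stood 17th in nearness to Cd3g while Cd3g stood 13th for Cd247. Ptcra and Cd247 were farthest apart, at 0.37. Such a distance takes in the size of the group difference as well as the spread within groups.

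Partners and relatives of the chains were read next. Trat1, a transmembrane adaptor that binds the receptor complex, fell from 9.13 ± 0.12 to 8.02 ± 0.26 (SD, n = 3; log2 difference -1.11 ± 0.16 SE, limma adjusted p = 0.000970). The call was lost without TLX3 replicate 1 (-0.97), and under quantile (-0.93) and cyclic loess (-0.94) scaling. The constant regions of the variable chains were not analysed here, since no single-symbol probe set used here names them. Of 5 ITAM-bearing chains of other receptors, 2 were called lower and none higher. The call as lower was made for 5.07% of all genes. Fcer1g, the gamma chain of Fc receptors and a relative of zeta, fell from 8.86 to 5.76 (-3.10 ± 0.14 SE, adjusted p = 6.47e-06). Tyrobp, the DAP12 adaptor of NK and myeloid receptors, fell from 8.29 to 6.18 (-2.12). Cd79b, of the B-cell receptor, was at -0.71 (adjusted p = 0.00393) without being called, and Cd79a and Ms4a2 did not pass. The median of the 5 was -0.71.

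Markers of other cells were lower too. The depletion and sort named in the labels select on CD4 and CD8. Over all genes 5.07% were called lower and 1.44% higher. Of 14 NK markers, 9 were called lower and none higher, led by Ccl5 (-3.68), Ncr1 (-2.98) and Klrb1c (-2.80). Their summed linear signal (2 to the power of each log2 value) was 3222 to 3842 in the Rag2-/- arrays and 1577 to 2061 in the TLX3 arrays. In the latter, 10 of the 14 had group means under the array medians, against 2 of 14 in the former. Gzma stood against this at 0.76. With a mean of 9.73 in the TLX3 group it was the brightest of the 14 there and weighed most in their summed signal. Prf1 (-0.30), Eomes (-0.34) and Tbx21 (-0.17) did not pass the adjusted p. Of 12 myeloid and dendritic markers, 11 were called lower, H2-Aa (-5.50) and Cd74 (-5.09) first, with summed signals of 6290 to 7912 and 638 to 756. Of 10 thymic epithelial markers, 7 were called lower, Prss16 (-5.60) and Ccl25 (-5.01) first, with summed signals of 6660 to 12374 and 1184 to 1408. Foxn1 (-0.75) passed only the adjusted p, and Epcam (-0.03) and Aire (0.22) did not pass. None of 9 measured B-lineage markers was called at these thresholds in limma, and 3 passed the adjusted p, and as many an unadjusted p under 0.05, in each direction. Quantile and cyclic loess scaling left 3 lower and 0 higher. Cd79a, Cd79b, Tyrobp, Ptprc and Cd69 each stand in more than 1 list. The part of NK cells in the values of Cd247, and of any of these cells in the other receptor genes, was not tested.

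Transcription factors and Notch genes known to act on Ptcra and the CD3 genes did not share 1 direction. Of 14 measured, none was called in limma; by the adjusted p alone 5 were lower and 3 higher, and at an unadjusted p under 0.05, 5 and 4. Over all genes 19.4% were lower and 23% higher by the adjusted p, so 3 of 14 higher is near that background. The 5 of 14 lower is above it, and nearer the 29.4% lower among the 2400 genes at least as bright as Cd247. Nothing particular to the list is read from the split. Scaling moved it: 4 were lower and 5 higher after cyclic loess, and 5 and 1 with equal array medians. Notch3, a receptor gene active in DN cells, was lower by the most (-0.77 ± 0.15 SE, adjusted p = 0.00458), with Bcl11b, a factor of T-lineage commitment, at -0.65, Notch1 at -0.62, Runx1 at -0.50 and Myb at -0.40. Gata3, a factor of T-lineage specification, was higher (0.66 ± 0.14 SE, adjusted p = 0.00654), with Maml1, a Notch coactivator, at 0.48 and Ikzf1 at 0.40. The E-protein genes Tcf3 (0.24, adjusted p = 0.123) and Tcf12 (-0.23, adjusted p = 0.149) and Rbpj (-0.27, adjusted p = 0.210) did not pass. The median of the list was -0.25, and -0.12 under both quantile and cyclic loess scaling.

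Of 7 measured kinases and phosphatases of the ITAM step, Fyn was called lower, 6 were not called and none was called higher. The call was made as lower for 5.07% of all genes and as higher for 1.44%. By the limma adjusted p alone 4 of the 7 were lower and 1 higher, against 19.4% and 23% of all genes. Quantile and cyclic loess scaling each gave 3 lower and 1 higher. Fyn read 9.24 ± 0.10 in the Rag2-/- and 8.16 ± 0.11 in the TLX3 arrays (SD, n = 3), a log2 difference of -1.08 ± 0.13 (SE, limma adjusted p = 0.000459). Quantile (-0.90) and cyclic loess (-0.91) scaling ended the call. Zap70, the kinase that binds phosphorylated ITAMs, was higher (0.73 ± 0.13 SE, adjusted p = 0.00304), while its relative Syk was lower (-0.37, adjusted p = 0.0460). Ptpn22, a phosphatase that restrains them, had the largest difference not called (-0.92, adjusted p = 0.00201), and Ptprc, the CD45 phosphatase, was at -0.74. Lck has no single-symbol probe set and was not analysed here. The median of these 7 was -0.37, and -0.16 and -0.19 under quantile and cyclic loess scaling.

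Of 11 measured adaptors and effectors after the ITAM step, 7 were lower and 1 higher by the adjusted p, with a median of -0.64. By the same threshold 19.4% of all genes were lower and 23% higher. Among the 2400 genes at least as bright as Cd247, 29.4% were lower and 14.25% higher. Quantile and cyclic loess scaling each gave a list median of -0.50, with 7 lower and 2 higher. Only Txk, a Tec-family kinase, was called (-1.08 ± 0.12 SE, adjusted p = 0.000427), from 6.98 to 5.90, the latter under the array medians. Grap2 (-0.87), Tec (-0.74), Plcg1 (-0.73), Lat (-0.68), Prkcq (-0.64) and Nck1 (-0.57) were the others lower, and Grb2 (0.41) was higher. The SLP-76 adaptor gene Lcp2 averaged 9.51 in both groups. Of 9 genes for turnover of the complex, the ubiquitin ligases Cblb (-1.09 ± 0.15 SE, adjusted p = 0.000940) and Itch (-1.01 ± 0.16 SE, adjusted p = 0.00148) were called lower. The call as lower was made for 5.07% of all genes. By the limma adjusted p alone 3 of the 9 were lower and none higher, against 19.4% and 23% of all genes. Cblb lost the call without TLX3 replicate 1 (-0.96), with cyclic loess (-0.99) and with array weights (-0.97). Itch lost it in those settings (-0.87, -0.83 and -0.97), with quantile scaling (-0.81) and without Rag2-/- replicate 1 (-0.98) or 2 (-0.99). Laptm5, which promotes loss of zeta, was at -0.25 (adjusted p = 0.228). None of 8 chaperone and translocation genes of the endoplasmic reticulum was called in limma. Of these, Hsp90b1 alone passed the adjusted p (-0.46) and an unadjusted p under 0.05, and calnexin (Canx) was at -0.08.

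Other T-lineage genes read on the same arrays did not share 1 direction. Of 10 surface markers of DN and early T cells, Cd44 (-1.35) and the CD25 gene Il2ra (-1.19) were called lower, and by the adjusted p alone 5 were lower and 2 higher. The 2 were Cd5 (0.82) and Cd27 (0.60), while Thy1 was at 0.21 (adjusted p = 0.165). Since 23% of all genes were higher by the adjusted p and 19.4% lower, 2 of 10 higher is near that background. The 5 of 10 lower is above it, and above the 29.4% lower among the 2400 genes at least as bright as Cd247. Quantile and cyclic loess scaling each gave 5 lower and 4 higher. Whether the share lower is particular to these markers was not tested. Of 5 measured coreceptor and double-positive stage genes, Ccr9 (1.59) and Cd8b1 (1.52) were called higher. Of 6 genes that receptor signals induce, Nr4a1 (1.80), Id3 (1.45) and Egr1 (1.44) were called higher and none lower, with Egr2 at 0.65. Egr3 (0.42, limma adjusted p = 0.104) and Cd69 (0.15, limma adjusted p = 0.347) did not pass. The call as higher was made for 1.44% of all genes. Group means in the Rag2-/- arrays lay under the array medians for Nr4a1, Id3 and Egr1, and whether they were above background there was not measured.

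**Figure D5:**
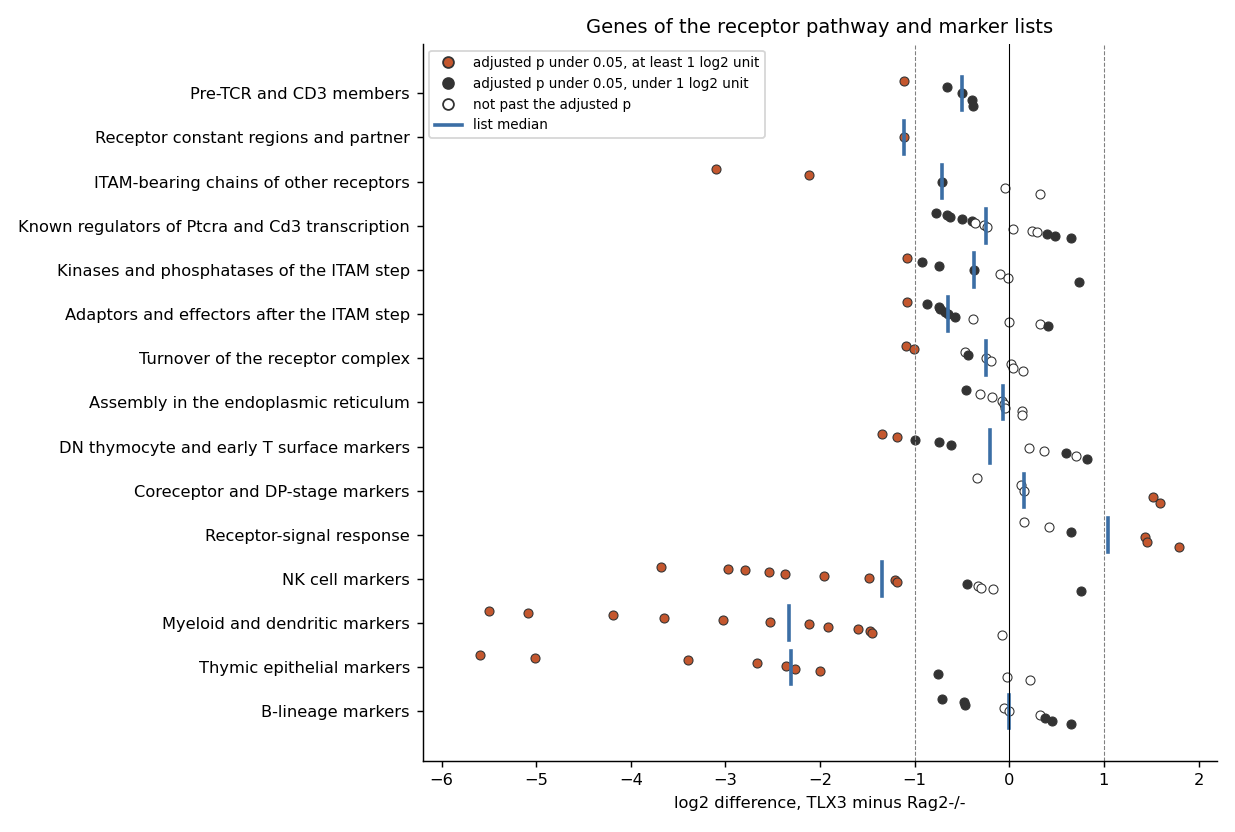
Log2 difference (TLX3 minus Rag2-/-) of every measured gene in the receptor lists and marker lists, 1 point a gene, with the median of each list (blue bar); orange points were called, dark points passed only the adjusted p and open points neither. The receptor genes lie between -1.11 and -0.38, the lists of myeloid and thymic epithelial markers have medians of -2.32 and -2.31, and genes that receptor signals induce have a median of 1.04.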

How the data were processed

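Total RNA of 6 samples was labelled with biotin and hybridised to Affymetrix arrays, 1 array a sample. The values the authors deposited are log2 expression values, 1 per probe set, and the submitters' processing notes name R 2.9.0, affy and RMA; no genome build is given. Of 34760 probe sets, 6568 consecutively numbered ones without a listed gene were taken as controls and left out. The other 28192 were tested with limma 3.58.1 (lmFit, eBayes, two-sided, no covariate) in R 4.3.3, with Benjamini-Hochberg adjustment over all of them. Genes were named from the platform annotation, each by its brightest single-symbol probe set. A call needs an adjusted p under 0.05 and a log2 difference of 1 or more in size. The receptor genes and lists were chosen with earlier results of these data known. Named genes are the receptor genes, called list genes (up to 4 a list and direction), the largest uncalled gene of the ITAM and regulator lists, called and nearest neighbours, nearest patterns and label checks. Other list genes were named after their values were seen. The fit was run on simulated data with added differences of 1.5, 2 and 3 log2 units, and 83.6%, 98.5% and 98.5% were recovered. Differences as small as those of the receptor genes were not simulated, nor was the shift with level, so the simulation does not bear on them. Precision is limited by the number of arrays.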

Additional observations from a re-analysis of the deposited data

How the results depend on the processing

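The settings tried were a second quantile normalization, equal array medians, cyclic loess, filters on dim probe sets (25th percentile, median), an intensity trend fitted robustly, array weights, averaged probe sets per gene, limma treat, the replicate number as a block, and leaving out each array. All 5 receptor genes kept a negative difference in each. Called receptor genes went from 1 to 0 after cyclic loess and under limma treat. Those past the adjusted p went from 5 to 3 after the second quantile normalization, where Cd3g was at -0.21 and Cd247 at -0.20; Cd247 was at -0.22 after cyclic loess. As arrays were left out, that count ranged from 2 to 5, with differences of -0.53 to -0.45 for Cd3e, -0.43 to -0.36 for Cd3g and -0.44 to -0.31 for Cd247. Called neighbours ranged from 1 to 2 as arrays were left out, and cyclic loess gave 3. Among pair contrasts, the second quantile normalization gave -0.22 for Cd3e less Cd3g and -0.24 for Cd3e less Cd247. Cyclic loess gave -0.54 and -0.55 for Ptcra less Cd3e and less Cd3g, -0.0016 and -0.21 for Cd3e less Cd3g and less Cd247, and -0.21 for Cd3g less Cd247. The last ranged from -0.048 to 0.0089 as arrays were left out, above 0 without Rag2-/- replicate 1 (0.0046) and TLX3 replicate 3 (0.0089). The calls of Trat1 and Fyn both went from 1 to 0 after quantile and cyclic loess scaling, and those of turnover genes from 2 to 1 and 0. As arrays were left out, Trat1 ranged from 0 to 1 call, turnover genes from 0 to 2, and DN surface markers called higher from 0 to 2. Same-numbered arrays did not deviate together (correlations of -0.11, 0.06 and -0.0017), so the numbers were not taken as pairs. With the replicate block, 3 of the 5 passed, Cd3g (-0.40, adjusted p = 0.0548) and Cd247 (-0.38, adjusted p = 0.0640) missing it. Over all genes, limma treat called 122 lower and 7 higher, against 1010 and 288, and the count higher by the adjusted p fell from 4595 to 1822 with only bright probe sets and to between 2559 and 2862 without each Rag2-/- array. The causes of these shifts were not tested. Detection calls were not used, so dim values may be background.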
